A study of Mus musculus with 8 samples.

Results

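Costimulatory and inhibitory receptors set how a T cell answers antigen, and their RNA was followed in lymph node cells before and after immunization. The set held 10 genes by name: Pdcd1, Ctla4, Icos, Cd28, Cd200, Btla, Lag3, Tigit, Cd160 and Havcr2, of 12393 genes that the array annotation gives alone to a probe set. Every probe set annotated to only 1 of these genes was taken. This gave 12 probe sets for 8 genes, since Btla and Tigit have none in the annotation used here. Of the 12, 10 reached a ratio of 1 on 2 or more arrays, the filter on low values, and were tested, for the 6 genes Pdcd1, Ctla4, Icos, Cd28, Cd200 and Cd160. The single probe sets of Lag3 and Havcr2 did not pass.

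Cells came from lymph nodes of B10.BR mice, an inbred strain, made into a suspension and, per the labels, sorted by flow cytometry. There were 3 arrays of naive mice, 3 arrays of mice 7 days after immunization and 2 arrays of mice 28 days after immunization. No label gives the immunogen, the sorted population, or the age or sex of the mice. Nothing states that replicates are separate animals, and p-values therefore measure only array-to-array spread, which may be technical. Each value is a log2 ratio. As read from the values, it is the level of a probe set relative to the median it had across 8 arrays, with a shared floor in place of lower medians. A value of 0 is therefore that median or floor, and levels of different probe sets cannot be compared.

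A T cell needs a second signal besides its antigen receptor. CD28, present on naive T cells, gives it by binding CD80 and CD86 on antigen-presenting cells, and ICOS, which appears after activation, gives a related signal through ICOS ligand. CTLA-4 binds CD80 and CD86 more tightly than CD28 does and limits their effect, while PD-1, encoded by Pdcd1, binds PD-L1 and PD-L2 and recruits tyrosine phosphatases. In lymph nodes, follicular helper T cells, which enter B cell follicles and help antibody responses, are known for high PD-1 and ICOS. T cell markers passed the filter. The 8 probe sets of 6 T cell genes (Cd3 chains, Cd247, Lat and Cd5 among them) had mean log2 ratios from -0.21 to 0.80 in naive cells, -0.67 to 0.66 at day 7 and -0.54 to 0.36 at day 28, and 0 of 8 passed the test in any comparison.

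The arrays did not fall apart by stage alone. On the leading principal component, which held 43.7% of the variance of the 13042 probe sets tested, naive replicate 1 was placed at -44.5, beside the day 7 arrays (-71.7 to -55.4). Naive replicates 2 and 3, at 64.5 and 85.4, were placed with those of day 28, at 35.2 and 44.3. The 18 probe sets of bacterial spike-in RNA split the arrays in the same way. Their median was -1.16 (log2 ratio) for naive replicate 1 and -1.70 to -1.03 at day 7, against 0.66 to 0.85 on naive replicates 2 and 3 and 0.64 to 1.41 at day 28. Naive replicate 1 and the day 7 arrays are named low, and the remaining arrays high, spike-in arrays, and each receptor difference is also given among arrays of the same kind.

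The sequences around the start sites of Pdcd1 and Ctla4 are shown because these are the receptors whose only probe set passed the test at day 7. Each window runs from 250 bases before to 50 bases after the RefSeq start on build GRCm38.p6, written 5′ to 3′ on the gene's strand. Capitals mark matches, on either strand, to GGAAA (the core of sites for NFAT, the factor that calcium signals switch on in T cells), TGANTCA (the AP-1 site), GGGCGG (the GC box) and TATAAA (the TATA box).
Pdcd1, chr1:94052504-94052803, minus strand: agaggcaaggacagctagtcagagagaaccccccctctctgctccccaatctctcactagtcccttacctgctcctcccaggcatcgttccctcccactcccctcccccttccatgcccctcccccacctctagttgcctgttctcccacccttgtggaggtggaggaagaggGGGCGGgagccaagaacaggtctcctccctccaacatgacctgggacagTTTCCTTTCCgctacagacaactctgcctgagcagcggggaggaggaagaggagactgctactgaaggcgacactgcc
Ctla4, chr1:60908775-60909074, plus strand: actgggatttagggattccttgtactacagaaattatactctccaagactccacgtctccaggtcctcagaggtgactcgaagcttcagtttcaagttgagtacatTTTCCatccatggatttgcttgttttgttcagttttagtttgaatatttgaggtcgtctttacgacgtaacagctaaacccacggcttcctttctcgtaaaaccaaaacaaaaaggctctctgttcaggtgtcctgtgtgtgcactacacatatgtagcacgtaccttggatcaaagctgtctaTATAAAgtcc
Pdcd1 held 2 NFAT core matches side by side, whose first bases lie at -28 and -23 from the start site, both on the other strand, and 1 GC box at -77. Ctla4 held 1 NFAT core match at -144, also on the other strand, and 1 TATA box inside the transcribed part at 41. Neither window held an AP-1 match, and no match overlapped a match to another motif. Such letters are common: of 32851 windows in the RefSeq table, 61.3% held the NFAT core, 35.7% the GC box, 13.6% the TATA box and 7.81% the AP-1 site. Windows were found for 7 of the 10 genes. Those of Cd160 numbered 2, of which 1 held an NFAT core and a GC box and the other held none of the 4 motifs.

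Setting day 7 against naive asks which receptors had more or less RNA 1 week after immunization. Pdcd1, Ctla4, Icos and Cd160 each rose by at least 1 probe set: 4 of the 10 probe sets tested rose, 0 fell and 6 did not pass limma at an adjusted p under 0.05. Over all 13042 probe sets tested, 1.06% rose and 0.107% fell. The median log2 difference was 2.26 over the 10 receptor probe sets and 0.11 over all tested. On 8 of the 10, every day 7 array lay above every naive array, as it did on 13.4% of all tested. These counts describe the probe sets that passed the filter, and 2 of the 3 Cd160 probe sets passed it only through day 7 arrays. A term for the low and high spike-in arrays leaves naive replicate 1 alone against the 3 day 7 arrays, a lone array assumed to vary like the others. In that fit the limma adjusted p was 0.0288 for Cd160 and 0.236, 0.269 and 0.281 for Pdcd1, Ctla4 and Icos.

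Pdcd1 had log2 ratios of -2.09, -1.95 and -2.15 in naive cells, 3.60, 0.76 and 2.33 on the day 7 arrays, and -0.45 and 0.34 on the day 28 arrays (probe set 1449835_at, gene ID 18566). The naive arrays lay within a narrow band, the day 7 arrays all lay above every other array, and the day 28 arrays lay between. The mean was 2.23 ± 1.42 at day 7 and -2.06 ± 0.10 in naive cells (SD, n = 3 each), a rise of 19.6-fold (log2 difference 4.29, 95% interval 2.77 to 5.82, limma adjusted p = 0.0347). Against naive replicate 1 alone, which like the day 7 arrays is a low spike-in array, the difference was 4.32. Under the alternative settings the log2 difference ran from 3.61 to 5.03, and the call changed: leaving out naive replicate 2 or 3 gave a limma adjusted p of 0.152 or 0.135, leaving out day 7 replicate 3 gave 0.170, and leaving out either day 28 array 0.0668.

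Ctla4, the inhibitory receptor that competes with CD28 for its ligands and is also abundant in regulatory T cells, had log2 ratios of -0.87, -1.40 and -2.20 in naive cells, 2.60, 1.0 and 1.70 at day 7, and 0.15 and -0.17 at day 28 (1419334_at, gene ID 12477). As for Pdcd1, the 3 stages did not overlap and day 28 lay in the middle. Ctla4 averaged 1.77 ± 0.80 at day 7 and -1.49 ± 0.67 in naive cells (SD, n = 3 each) and rose 9.58-fold (log2 difference 3.26, 95% interval 2.11 to 4.42, limma adjusted p = 0.0347). Within the low spike-in arrays the difference was 2.64. Leaving out naive replicate 2 or 3 gave a limma adjusted p of 0.149 or 0.113, leaving out day 7 replicate 1 or 3 gave 0.0696 or 0.169, and leaving out either day 28 array 0.0698. Foxp3, the transcription factor of regulatory T cells, had a log2 difference of -0.95 ± 0.60 (SE, limma adjusted p = 0.467) and Il2ra, the high-affinity chain of the interleukin-2 receptor, of -0.25 ± 0.50 (adjusted p = 0.823). Nrp1, the remaining regulatory T cell marker tested, rose by 2 of its 3 probe sets, with log2 differences of 4.06 and 3.05. The third had 3.50 and did not pass (limma adjusted p = 0.0747).

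Icos, the costimulator that activated T cells gain, was measured by 2 probe sets (gene ID 54167). The first, 1421930_at, had log2 ratios of -1.40, -1.63 and -1.29 in naive cells, 2.65, 1.93 and 2.71 at day 7, and -2.13 and 0.67 at day 28. The second, 1421931_at, had -1.47, -1.24 and -1.79 in naive cells, 2.87, -0.59 and 1.28 at day 7, and 0.42 and 0.45 at day 28. Both placed every day 7 array above every naive array, but they ordered the day 7 and day 28 arrays differently, above all day 28 replicate 1.

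The first probe set of Icos rose 14.6-fold at day 7 (log2 difference 3.87, 95% interval 2.35 to 5.39, limma adjusted p = 0.0431). The second had a log2 difference of 2.69 (95% interval 0.92 to 4.46, limma adjusted p = 0.165) and did not pass, and the mean of the 2 probe sets had 3.28 (limma adjusted p = 0.0353). Within the low spike-in arrays the differences were 3.83 and 2.66. For the first, leaving out naive replicate 2 or 3 gave a limma adjusted p of 0.182 or 0.155, and leaving out day 7 replicate 1, 2 or 3 gave 0.130, 0.0896 or 0.213. For the second it was 0.0444 without day 7 replicate 2, the array on which it was lowest, with a log2 difference of 3.58.

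Cd28, the costimulator of naive T cells, did not pass at day 7 by either probe set (gene ID 12487). By 1417597_at its log2 ratios were -0.39, -0.24 and 0.24 in naive cells, 3.35, -0.67 and 1.77 at day 7, and -0.43 and 0.21 at day 28. Day 7 replicate 2 lay below every naive array and the other day 7 arrays lay above them all. By 1437025_at the values were 0.92, -0.96 and -1.89 in naive cells, 1.84, 0.50 and 0.08 at day 7, and -2.16 and -0.08 at day 28, which puts naive replicate 1 above 2 of the 3 day 7 arrays. The log2 differences of day 7 against naive were 1.61 (95% interval -0.46 to 3.68, limma adjusted p = 0.417) and 1.45 (-0.54 to 3.45, limma adjusted p = 0.444). Within the low spike-in arrays they were 1.87 and -0.11, so the second had no positive difference there.

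Cd200 encodes a surface glycoprotein that restrains myeloid cells through the CD200 receptor, and it is a ligand rather than a receptor of the CD28 family. Its log2 ratios were -0.54, -1.57 and -0.32 in naive cells, 1.09, 1.30 and 0.68 at day 7, and -0.67 and 0.26 at day 28 (1448788_at, gene ID 17470). Every day 7 array lay above all other arrays. The mean was 1.02 ± 0.32 at day 7 and -0.81 ± 0.67 in naive cells (SD, n = 3 each), a log2 difference of 1.83 (95% interval 0.83 to 2.83) that did not pass (limma adjusted p = 0.110) and was 1.56 within the low spike-in arrays. Without naive replicate 1 it was 1.97 and passed (limma adjusted p = 0.0409). That fit sets only high spike-in naive arrays against the low day 7 arrays, so stage and spike-in set cannot be told apart in it. Of all 13042 probe sets tested, 1727 passed there, against 152 with all 8 arrays.

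**Figure D1:**
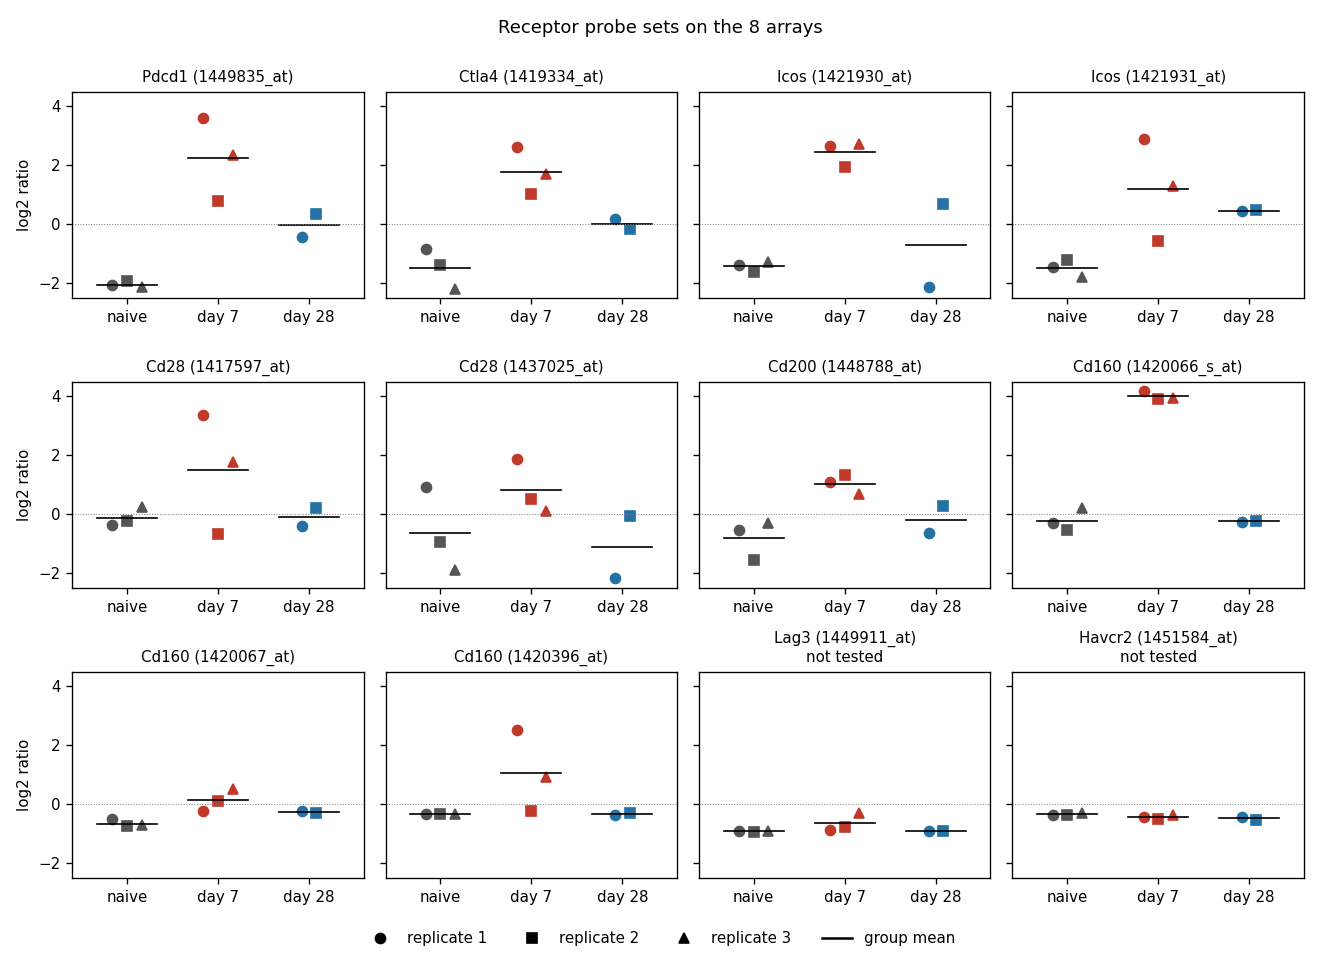
Log2 ratio (vertical axis) of the 12 receptor probe sets on the 3 naive, 3 day 7 and 2 day 28 arrays (horizontal axis), with a symbol per replicate and a line at each group's mean. Pdcd1, Ctla4, the first Icos probe set, Cd200 and Cd160 by 1420066_s_at have their day 7 arrays above all other arrays, while Lag3 and Havcr2 stay below 0 on all 8 arrays.

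Cd160 encodes a receptor anchored in the membrane by lipid, known from NK cells and CD8 T cells, that binds HVEM. It had 3 probe sets that disagreed in size (gene ID 54215). By 1420066_s_at, the log2 ratios were -0.32, -0.56 and 0.20 in naive cells, 4.16, 3.90 and 3.92 at day 7, and -0.28 and -0.23 at day 28. The day 7 arrays stood about as high as one another and far above all others. The mean was 3.99 ± 0.15 at day 7 and -0.23 ± 0.39 in naive cells (SD, n = 3 each), a rise of 18.7-fold (log2 difference 4.22, 95% interval 3.55 to 4.90, limma adjusted p = 0.00102), and 4.32 within the low spike-in arrays.

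The other Cd160 probe sets did not pass. By 1420067_at, annotated to the same sequence accession, the values were -0.53, -0.75 and -0.72 in naive cells, -0.24, 0.09 and 0.51 at day 7, and -0.24 and -0.32 at day 28, with a log2 difference of 0.79 (95% interval 0.13 to 1.46, limma adjusted p = 0.255). By 1420396_at they were -0.36, -0.36 and -0.35 in naive cells, 2.50, -0.24 and 0.90 at day 7, and -0.38 and -0.32 at day 28, with a log2 difference of 1.41 (-0.022 to 2.84, limma adjusted p = 0.327). Both had medians below the common floor and lay above it on only 2 arrays, all of day 7. By Affymetrix naming, the suffix of the first marks a probe set with probes shared by several transcripts, and how much of its signal came from Cd160 was not tested. The mean of the 3 had a log2 difference of 2.14 (limma adjusted p = 0.0174). Since 2 of the 3 passed the filter only through day 7 arrays, their part in this rise was set by the filter.

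Cell types known to carry Cd160 were followed by their markers. NK cell markers tested were 3 of a list of 6: Nkg7, a granule protein shared with cytotoxic T cells, rose by 4.05 on the log2 scale at day 7 (limma adjusted p = 0.0107), while Gzma, a granule protease, had 0.75 ± 0.40 (SE, adjusted p = 0.406) and Klrd1, an NK receptor chain, -0.91 ± 0.81 (adjusted p = 0.597). The mean log2 ratio of the 3 ran from -0.19 to 0.63 at day 7 and from -1.51 to -0.45 in naive cells. Of 4 CD8 T cell probe sets, 0 passed at day 7. The part of these cells in the Cd160 result was not tested. In sorted cells measured in bulk, fewer cells of a type and less RNA per cell cannot be told apart, which holds for every receptor here.

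Lag3, an inhibitory receptor that binds MHC class II, and Havcr2, which encodes the inhibitory receptor TIM-3, lay below the common floor on all 8 arrays. Lag3 ran from -0.95 to -0.91 in naive cells, -0.90 to -0.31 at day 7 and was -0.92 on both day 28 arrays (1449911_at, gene ID 16768). Havcr2 ran from -0.39 to -0.33 in naive cells, -0.52 to -0.38 at day 7 and was -0.45 and -0.55 at day 28 (1451584_at, gene ID 171285). The floor is read from the values, and no source gives a background level, so differences under it were not interpreted. Neither probe set was called when all 22626 probe sets were tested with no filter.

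**Figure D2:**
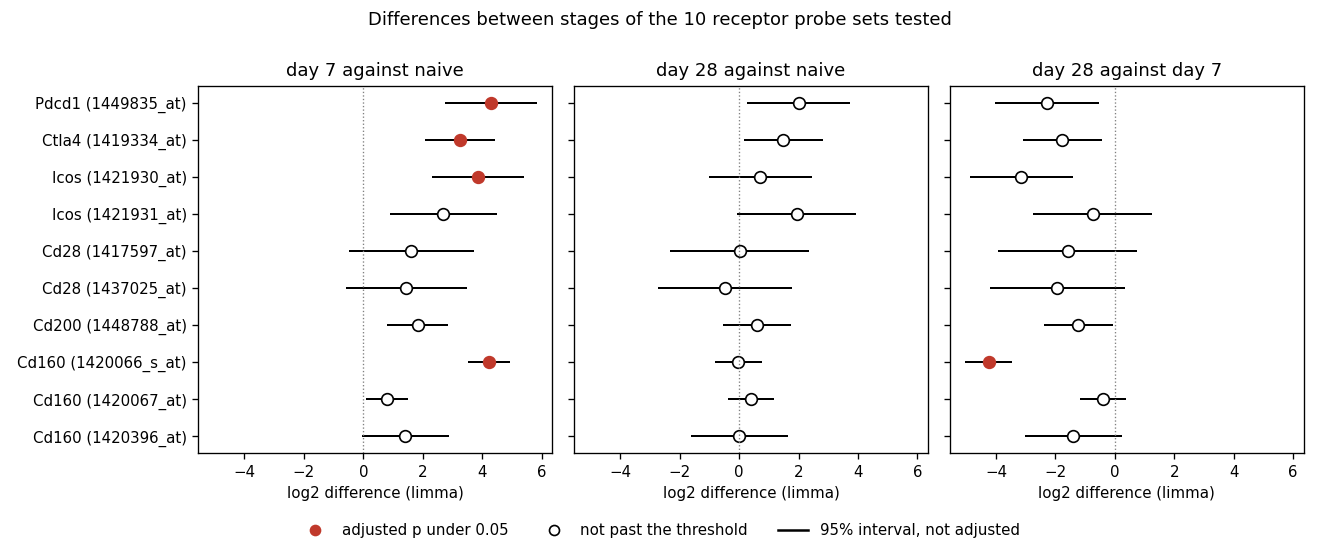
Log2 difference (horizontal axis) of the 10 receptor probe sets tested in 3 comparisons, with 95% intervals that are not adjusted for the number of tests. Filled points mark an adjusted p under 0.05: 4 at day 7 against naive, 0 at day 28 against naive and 1 at day 28 against day 7.

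Within the day 7 group, 1 array was often highest. Day 7 replicate 1 was the highest of the 3 day 7 arrays on 7 of the 10 receptor probe sets (44.4% of all tested), and day 7 replicate 2 the lowest on 7 (43.0% of all tested). The exceptions to the first were Cd200, the first Icos probe set and Cd160 by 1420067_at. Spike-in signal was lowest on day 7 replicate 1. The mean log2 ratio of the 8 T cell probe sets was likewise highest on replicate 1 and lowest on replicate 2. It was 0.66, -0.67 and -0.23 on day 7 replicates 1, 2 and 3. Not every T cell probe set had this order, since Cd3e was highest on replicate 2. The part of spike-in signal and of T cell RNA in the receptor order was not tested. Over the 8 arrays, the Pearson correlation between the 45 pairs of receptor probe sets ran from 0.32 to 0.97 with a median of 0.72. Pdcd1 and Ctla4 had 0.96, the 2 Icos probe sets 0.70, and the 2 Cd28 probe sets 0.53. All pairs share the same arrays and the difference between the naive and the day 7 arrays.

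The genes whose pattern was most like that of a receptor were taken as the 5 with the highest Pearson correlation over the 8 arrays, among 11791 probe sets with 1 gene symbol. For Pdcd1 these were Ppt1, a lysosomal enzyme that removes lipids from proteins (0.99), Nr2f6, an orphan nuclear receptor (0.98), Ttc1 (0.97), Carhsp1 (0.97) and Pdcd1lg2 (0.97), which encodes PD-L2, a ligand of PD-1 itself. For Ctla4 they were Sugt1 (0.99), Txndc17 (0.98), Srgn, a granule proteoglycan (0.97), Decr1, an enzyme of fatty acid oxidation (0.97) and Carhsp1 (0.96). For the first Icos probe set they were S100a10, a partner of annexin (0.99), Pgam1, a glycolytic enzyme (0.97), Sh3rf1 (0.97), Nrp1, a semaphorin receptor (0.96), and Tiam1, an activator of the GTPase Rac (0.95). Only Carhsp1 was in 2 of the 3 groups. With 8 arrays and this many probe sets, correlations of this size describe these arrays and no more.

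Pdcd1lg2 had log2 ratios of -0.66, -0.43 and -0.66 in naive cells, 2.68, 0.79 and 1.42 at day 7, and -0.40 and 0.31 at day 28. Its order of arrays at day 7 was that of Pdcd1. The log2 difference at day 7 against naive was 2.21 ± 0.49 (SE) and did not pass (limma adjusted p = 0.0942).

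Ligands and partners of the receptors were followed as 4 lists. Of 13 ligand genes, 9 were tested by 14 probe sets, and 0 passed at day 7 (median log2 difference -0.20). Of 24 signalling partners of the CD28 family, such as the phosphoinositide 3-kinase subunits and the phosphatases Ptpn6 and Ptpn11, 21 were tested by 36 probe sets, and 0 passed (median 0.10). Of 18 transcription factors known to act on receptor genes, 11 were tested by 14 probe sets and 1 rose, where 1.06% of all tested rose (median of the list 0.86). It was Bcl6, a factor known from follicular helper T cells but not from them alone (log2 difference 3.35 ± 0.51, SE, limma adjusted p = 0.0347). Of the 14, 10 had positive differences, among them Tbx21 (2.28) and Prdm1 (0.90), which did not pass. Bcl6 had log2 ratios of 0.07, -1.68 and -1.01 in naive cells, 3.10, 1.91 and 2.43 at day 7, and -0.64 and -0.07 at day 28, which is the order of Pdcd1, Ctla4 and the second Icos probe set at day 7. Its highest naive value, 0.07, was on naive replicate 1, the low spike-in array. Of 21 other costimulatory and inhibitory receptors, 16 were tested by 20 probe sets and 0 passed (median 0.73).

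Cell division markers also rose between these stages: 4 of 5 probe sets rose at day 7, against 1.06% of all tested. The mean log2 ratio of the list ran from 2.02 to 2.95 at day 7 and from -1.51 to -0.91 in naive cells. Within day 7 it was 2.02, 2.71 and 2.95 on replicates 1, 2 and 3. It was thus lowest on replicate 1, where 7 of the 10 receptor probe sets were highest. Of the 5 probe sets of 3 regulatory T cell genes, 2 rose, both of Nrp1. The list's mean log2 ratio ran from 1.14 to 1.53 at day 7 and from -0.99 to -0.24 in naive cells, a difference that came from the 3 Nrp1 probe sets, since the differences of Foxp3 (-0.95) and Il2ra (-0.25) were negative and did not pass. The part of cell division in the receptor results was not tested. Of the B cell, germinal centre B and plasma cell, monocyte and macrophage, dendritic cell, neutrophil, CD4 T cell and erythroid and platelet markers tested, 0 passed at day 7. No stroma or endothelium marker passed the filter.

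Setting day 28 against naive asks whether receptor RNA still differed 4 weeks after immunization. None of the 10 receptor probe sets passed limma in either direction, and over all probe sets tested 0.322% passed. At an unadjusted p under 0.05, 2 were higher and 0 lower, against 6.34% of all tested in either direction. The 2 were Pdcd1 and Ctla4. Pdcd1 averaged -0.055 ± 0.56 at day 28 (SD, n = 2) and -2.06 ± 0.10 in naive cells (n = 3), a log2 difference of 2.01 (95% interval 0.30 to 3.71, limma adjusted p = 0.674). Ctla4 averaged -0.0088 ± 0.23 at day 28 and -1.49 ± 0.67 in naive cells, a log2 difference of 1.48 (95% interval 0.19 to 2.78, limma adjusted p = 0.697). Within the high spike-in arrays, 2 of each stage, the differences were 2.0 for Pdcd1 and 1.80 for Ctla4.

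At day 28 both arrays lay above every naive array on 4 of the 10 probe sets, those of Pdcd1, Ctla4, the second Icos probe set and Cd160 by 1420067_at, against 7.76% of all probe sets tested. Of these, Cd160 by 1420067_at lay below the common floor on all arrays of both stages, where differences were not interpreted. The second Icos probe set averaged 0.43 ± 0.023 at day 28 (SD, n = 2) and -1.50 ± 0.28 in naive cells (n = 3), with a log2 difference of 1.94 (95% interval -0.044 to 3.91, limma adjusted p = 0.805). The first averaged -0.73 ± 1.98 at day 28 and -1.44 ± 0.17 in naive cells, with a log2 difference of 0.71 (-0.99 to 2.41, limma adjusted p = 0.998). Its day 28 arrays lay on either side of the naive arrays, and the difference was -0.69 without day 28 replicate 2. Cd28 had differences of 0.018 (-2.30 to 2.34) and -0.48 (-2.71 to 1.75), Cd200 of 0.61 (-0.51 to 1.73), and Cd160 of -0.027 (-0.78 to 0.73) by 1420066_s_at, with an interval that does not reach the 4.22 of day 7.

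**Figure D3:**
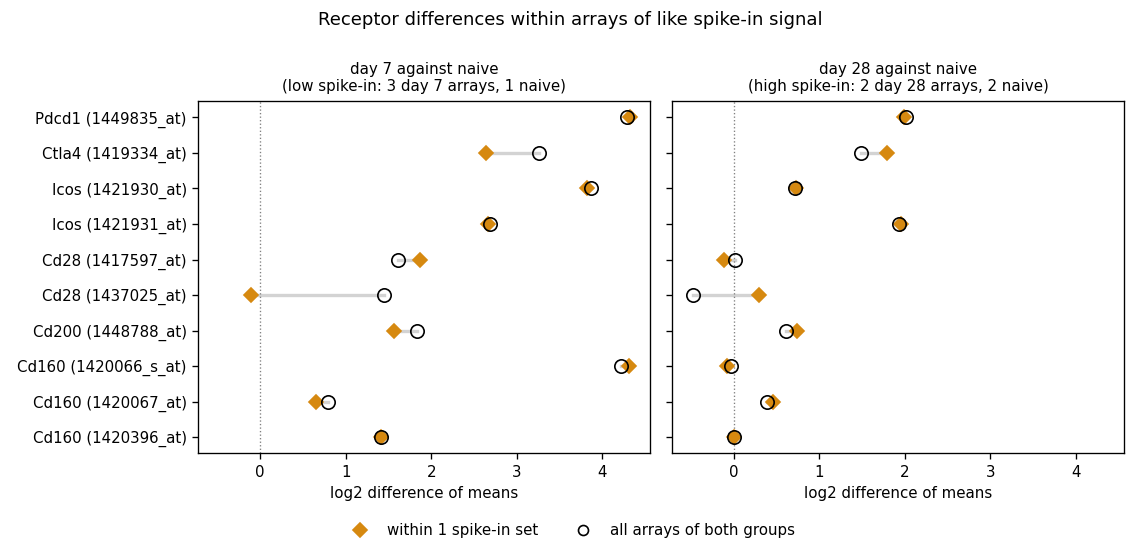
Log2 difference of group means (horizontal axis) of the 10 receptor probe sets, within arrays of like spike-in signal (diamonds) and over all arrays of both groups (circles), at day 7 against naive (left) and day 28 against naive (right). Diamonds lie close to circles for Pdcd1, Icos and Cd160, Ctla4 at day 7 is 2.64 within the low set, the Cd28 probe set 1437025_at changes sign in both panels and 1417597_at, near 0, in the right one.

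Among the ligands, MHC class II genes rose at day 28. Class II is the ligand of LAG-3. Of the 14 ligand probe sets, 4 rose against naive (0.268% of all tested rose) and 5 against day 7 (0.422% of all tested), and 0 fell in either comparison (medians 0.42 and 0.53). All were of the class II chains: H2-Eb1 rose by 6.45 on the log2 scale against naive (limma adjusted p = 0.00936), H2-Aa by 7.10 and 5.49 by its 2 probe sets (adjusted p = 0.00936 and 0.0247) and H2-Ab1 by 4.49 by 1 of 3 probe sets (adjusted p = 0.0149). In the list of other costimulatory and inhibitory receptors, 1 of 20 probe sets rose against naive, Cd22 (5.55 ± 0.64, SE, adjusted p = 0.0162), and 1 rose against day 7, Cd72 (4.53 ± 0.60, adjusted p = 0.0182), both inhibitory receptors of B cells. The medians of that list were 0.16 and -0.41.

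B cell markers also rose at day 28, a list that shares Cd22 with the other receptors. Of 8 probe sets of 7 B cell genes, 6 rose at day 28 against naive (0.268% of all tested) and 7 against day 7 (0.422% of all tested). Their mean log2 ratio ran from -0.97 to -0.31 in naive cells, -0.29 to -0.14 at day 7 and 3.50 to 4.16 at day 28. CD8 T cell markers ran from -0.35 to 0.09 in naive cells, -0.24 to 0.06 at day 7 and 1.70 to 2.31 at day 28, with 1 of 4 probe sets up against naive and 2 against day 7. The part of B cell and CD8 T cell RNA in the day 28 values of the receptors was not tested. Signalling partners and transcription factors had 0 probe sets past the threshold in either day 28 comparison (medians -0.15 and -0.25 against naive, -0.49 and -0.61 against day 7), where the medians over all probe sets tested were -0.049 and -0.16.

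**Figure D4:**
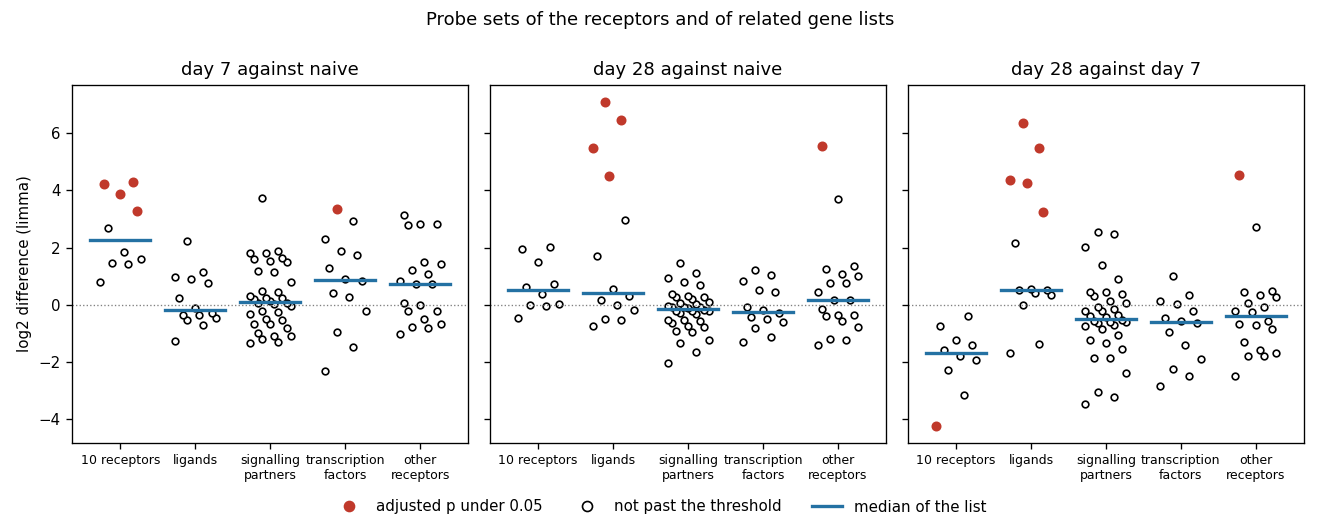
Log2 difference (vertical axis) of each probe set of the 10 receptor genes and of the 4 related lists in 3 comparisons, with lines at the median of each list and filled points for an adjusted p under 0.05. Filled points lie in the receptors and the transcription factors (Bcl6) at day 7, and among the ligands (MHC class II), the other receptors (Cd22, Cd72) and the receptors (Cd160, against day 7) at day 28.

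The comparison of day 28 with day 7 asks which receptors differed between the later and the earlier stage. All 10 receptor probe sets had negative differences, from -4.25 to -0.40 with a median of -1.68, against a median of -0.16 over all probe sets tested. Of these, 1 passed and fell, Cd160 by 1420066_s_at, and 9 did not pass, while 0.882% of all tested fell. Both day 28 arrays lay below every day 7 array on 8 of the 10, as on 29.7% of all tested. The 8 include both Cd160 probe sets that passed the filter only through day 7 arrays, so that their lower day 28 values were set by the filter. The day 7 and day 28 values also stand in the comparisons with naive arrays, so these are not independent of them.

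Cd160 by 1420066_s_at averaged -0.26 ± 0.035 at day 28 (SD, n = 2) and 3.99 ± 0.15 at day 7 (n = 3), a fall of 19.0-fold (log2 difference -4.25, 95% interval -5.01 to -3.49, limma adjusted p = 0.00333). The first Icos probe set averaged -0.73 ± 1.98 at day 28 and 2.43 ± 0.43 at day 7 (log2 difference -3.16, 95% interval -4.86 to -1.46, limma adjusted p = 0.0942). Without day 28 replicate 2 it was -4.56 and passed (limma adjusted p = 0.0230). Pdcd1 averaged -0.055 ± 0.56 at day 28 and 2.23 ± 1.42 at day 7 (log2 difference -2.28, 95% interval -3.99 to -0.58, limma adjusted p = 0.184), and Ctla4 -0.0088 ± 0.23 at day 28 and 1.77 ± 0.80 at day 7 (-1.78, -3.07 to -0.48, limma adjusted p = 0.175). Cd200 had -1.23 (-2.35 to -0.11, limma adjusted p = 0.261), Cd28 -1.59 and -1.93, and the second Icos probe set -0.75, none of them past the threshold. Cell division markers also fell between these stages: 3 of 5 probe sets fell, against 0.882% of all tested. The list's mean log2 ratio ran from -0.62 to 0.24 at day 28 and from 2.02 to 2.95 at day 7. Their part in the receptor values was not tested. Of the regulatory T cell markers, 1 of 5 probe sets fell, of Nrp1, whose 3 probe sets had log2 differences from -3.00 to -2.30, while Foxp3 had 0.14 and Il2ra -0.074. The mean of that list ran from -0.72 to 0.22 at day 28 and from 1.14 to 1.53 at day 7.

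All day 7 arrays were low and all day 28 arrays high in spike-in signal, so no value within 1 set can be had for this comparison, and only the naive arrays, which hold both kinds, tie the sets together. With a term for the sets, 0 of all 13042 probe sets passed, and Cd160 by 1420066_s_at had a log2 difference of -4.39 (limma adjusted p = 0.0885).

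In the mouse genome, 4 of the 10 receptor genes lie on chromosome 1. Cd28, Ctla4 and Icos are direct neighbours there, with 0 other protein-coding genes between Cd28 and Ctla4 or between Ctla4 and Icos in the RefSeq annotation of GRCm38.p6, while 278 lie between Icos and Pdcd1. Cd200 and Btla are neighbours on chromosome 16, which also holds Tigit. The neighbours of the Cd28 cluster differed in their calls at day 7: Ctla4 and 1 of 2 Icos probe sets rose and neither Cd28 probe set passed. Whether these differences between neighbours exceed the spread was not tested.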

How the data were processed

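RNA of 8 arrays was analysed. Column-purified total RNA (10 µg) was labelled with biotin as cRNA, per the labels' protocols, and GCRMA is named by the submitters' processing notes. The deposited values are linear ratios. No source states their scaling. The values show it: 47.9% of 22690 deposited probe sets had a median of 1 (within 0.0015) and none a higher one, as when dividing by a probe set's own median or a shared floor. Genome build and annotation version are not given in the sources used here.

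From the ratios, log2 values were fitted with limma 3.58.1 in R 4.3.3, with 1 mean per group over all 8 arrays, empirical Bayes moderation and two-sided tests. Benjamini-Hochberg adjustment ran over the 13042 of 22626 probe sets that are not controls and reached a ratio of 1 on 2 or more arrays, with a threshold of 0.05. The script was tested on simulated data. The number of arrays limits the precision. Genes named are the 10 receptors, up to 4 called members per list and comparison, the 5 genes most like Pdcd1, Ctla4 and Icos, and cell type markers of the lists given in the text. The members and lists were chosen with earlier results of these data known. Alternatives were no filter, a stricter filter (a median ratio of 1), quantile normalization, median centring, a spike-in term, only the 2 groups compared, a replicate block, gene means and leaving out each array. Sequences and gene neighbours are from RefSeq tables of GRCm38.p6, a build not tied to the arrays.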

Additional observations from a re-analysis of the deposited data

Results flagged for a closer look

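Cd160 by probe set 1420066_s_at was singled out because it passed in the comparison of day 28 with day 7. The day 28 effect minus the day 7 effect, each against naive, was -4.25 on the log2 scale (limma adjusted p = 0.00333). The naive arrays cancel in it, so it is the difference already given above and no further test. Values were lower on 2 of 2 day 28 arrays than on every day 7 array. All day 7 arrays were low and all day 28 arrays high in spike-in signal. With a term for these sets the difference was -4.39 and did not pass. The other 2 Cd160 probe sets had -0.40 and -1.40 (limma adjusted p = 0.579 and 0.368). No group held the 4 arrays that a check for single outlying arrays needs.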

How the results depend on the processing

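At day 7 against naive, 4 receptor probe sets were called, with 3 under the stricter filter (the first Icos probe set, limma adjusted p = 0.0502, was lost), 1 with no filter, 1 with the spike-in term, 1 with the replicate block, 2 with only the 2 groups compared and 1 to 5 with each array left out. The 5 include Cd200, without naive replicate 1, a fit in which only high spike-in naive arrays are left. Fits without either day 28 array and with only the 2 groups are the same fit here, which leaves 15 distinct settings, the reported one included. Cd160 by 1420066_s_at passed under all 15, Pdcd1 under 8, Ctla4 under 7 and the first Icos probe set under 6. For Cd160 and Icos these include the gene mean, which also draws on their other probe sets. At day 28 against naive 0 were called under all 16 alternatives. For this comparison the spike-in term and leaving out naive replicate 1 are the same fit. At day 28 against day 7 the number was 0 with the spike-in term and 1 to 2 with each array left out. Leaving out a day 28 array leaves a lone one, assumed to vary like the other groups. Of 444 values of single probe sets under alternatives other than gene means, equal fits counted each time, 396 kept their sign and call, 29 lost the call, 3 gained it and 16 changed sign, none of which was called as reported. At day 7 against naive, Cd28 by 1437025_at turned to -0.11 with the spike-in term. At day 28 against naive, Cd28 by 1417597_at turned to -0.11 with the spike-in term and -0.23 as a gene mean and ran from -0.30 to 0.33 with each array left out, with -0.11 and -0.04 among them. Cd28 by 1437025_at turned to 0.30 with the spike-in term and ran from -1.52 to 0.56. Cd160 by 1420066_s_at turned to 0.0052 with quantile normalization, 0.062 with the replicate block and 0.12 as a gene mean and ran from -0.19 to 0.19. Cd160 by 1420396_at turned to -0.027 with the replicate block and ran from -0.025 to 0.040, and the first Icos probe set ran from -0.69 to 2.11. At day 28 against day 7, Cd28 by 1437025_at turned to 0.41 with the spike-in term and the second Icos probe set ran from -1.64 to 0.087 with each array left out. The causes were not tested. Whether the replicate numbers pair the samples cannot be told from groups of 2 or 3 arrays. Deviations from the group means of like-numbered day 7 and naive arrays correlated at -0.23, -0.36 and 0.10. Among the naive arrays, day 7 replicate 1 correlated best with replicate 2. Like-numbered day 28 arrays correlated at 0.115 and 0.125 with naive arrays and at 0.171 and 0.093 with day 7 arrays. Over all probe sets tested, 152 were called at day 7 against naive, with 16 under the replicate block, 14 with the spike-in term, and with each array left out 17 (without naive replicate 2) to 1727 (without naive replicate 1). At day 28 against naive 42 were called, with 9 under the replicate block, 0 with only the 2 groups compared and 2 to 57 with each array left out. At day 28 against day 7 170 were called, with 15 under the replicate block, 591 with only those groups and 25 to 810 with each array left out.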

Other observations

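Some members of the related lists had large differences at day 7 without passing the test, and were chosen after their values were seen. They are not the only such members. Cd22, the B cell receptor named above, had a log2 difference of 2.82 ± 0.57 against naive (SE, limma adjusted p = 0.0757). Klrg1 had 2.80 ± 0.82 and Tbx21 2.28 ± 0.69 (limma adjusted p = 0.173 and 0.179). Tnfrsf4, which encodes the costimulator OX40, had a log2 difference of 3.15 ± 0.64 against naive (SE, limma adjusted p = 0.0775), and Slamf6, an adhesion receptor of T and B cells, 2.82 ± 0.59 and 1.5 ± 0.90 by its 2 probe sets (adjusted p = 0.0827 and 0.451). Ptpn11, the phosphatase SHP-2 that PD-1 recruits, had 3.74 ± 0.76 by 1 probe set and 0.24 ± 0.26 and 1.48 ± 0.52 by the other two (adjusted p = 0.0752, 0.659 and 0.241). Nfatc1, an NFAT factor, had 2.93 ± 0.76 and 1.75 ± 0.48 (adjusted p = 0.140 and 0.156). In the other direction, Foxo1, a factor of resting T cells, had -2.33 ± 0.52, -0.20 ± 0.76 and -1.48 ± 0.51 by its 3 probe sets (adjusted p = 0.0941, 0.911 and 0.233). Differences within the low spike-in arrays were not computed for these members. Ptpn11, by the probe set with 3.74, was 0.44 on naive replicate 1 but -1.86 and -2.91 on naive replicates 2 and 3. Slamf6 by its first was 0.09, against -2.40 and -1.49, and Foxo1 by its first 0.51, against 1.53 and 1.70. Naive replicate 1 thus lay nearest day 7 by these probe sets. This was not so for Tnfrsf4 or the other probe sets of Slamf6, Ptpn11 and Foxo1.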
